A study of Homo sapiens and Mus musculus with 14 samples.

Results

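Clone 2-only peaks are accessible sites that were recorded in cells of SMARCAL1 knockout clone 2 and overlapped, by even 1 bp, no peak of SMARCAL1 knockout clone 1 or of control cells. There were 3144 of them among the 34123 clone 2 peaks on chromosomes 1 to 22 and X (9.21%), out of 138915 peaks in the 3 deposited lists. The members were chosen by their presence and absence in these lists, so their number, score and width are given as descriptions and carry no test. ATAC-seq was done on MDA-MB-436, a cell line from a human breast adenocarcinoma, in 3 groups: SMARCAL1 knockout clone 2 with 2 libraries of batch 2, SMARCAL1 knockout clone 1 with 3 libraries of batch 1, and control cells with 3 libraries of batch 1. The labels give no treatment and do not say how the knockout was made; each knockout group is a single clone, and the peaks of each group's libraries come merged into 1 list. The 6 libraries of the mouse line B16F10 were not analysed here. No other group used here carries the batch 2 label, and effects of the clone and of the batch cannot be told apart. With 1 list a group no p-value can be had, and the 95% binomial intervals given in parentheses after shares (Clopper-Pearson) cover counting error only.

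ATAC-seq uses a transposase that inserts adapters where DNA is not wrapped in nucleosomes, and a peak is a stretch where insertions pile up above the local background. In most cells the strongest and most reproducible peaks lie at promoters rich in CpG, which are open in nearly every cell type, while peaks far from genes mark enhancers and other elements that differ more between cell states. SMARCAL1 is a DNA translocase that anneals single strands and remodels stalled replication forks; it belongs to the SNF2 family of ATPases.

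Most clone 2-only peaks lay far from gene starts, and for those no genome sequence was used here. Sequence was at hand for promoters, from RefSeq on GRCh38.p14, covering 250 bases before to 50 after each annotated start. Among the 10 genes with the highest-scoring clone 2-only peak at a gene end, 3 peaks overlapped such a promoter, and these promoters are shown to let the covered bases be seen. The capitals mark the bases inside the clone 2 peak, and each sequence reads 5′ to 3′ on the strand of its gene. The promoter of RAP2C, a small GTPase of the Ras family, lies on the minus strand at chrX:132219398-132219697, that of RASGRF2, a guanine nucleotide exchange factor for Ras, on the plus strand at chr5:80960113-80960412, and that of MRPL28, a protein of the large mitochondrial ribosomal subunit, on the minus strand at chr16:370489-370788.
RAP2C: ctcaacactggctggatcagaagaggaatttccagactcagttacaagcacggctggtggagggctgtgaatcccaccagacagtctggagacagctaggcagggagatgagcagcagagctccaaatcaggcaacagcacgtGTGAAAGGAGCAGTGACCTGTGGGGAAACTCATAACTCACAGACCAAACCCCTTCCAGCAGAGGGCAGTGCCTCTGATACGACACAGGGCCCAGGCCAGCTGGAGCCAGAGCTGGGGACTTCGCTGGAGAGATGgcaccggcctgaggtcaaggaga
RASGRF2: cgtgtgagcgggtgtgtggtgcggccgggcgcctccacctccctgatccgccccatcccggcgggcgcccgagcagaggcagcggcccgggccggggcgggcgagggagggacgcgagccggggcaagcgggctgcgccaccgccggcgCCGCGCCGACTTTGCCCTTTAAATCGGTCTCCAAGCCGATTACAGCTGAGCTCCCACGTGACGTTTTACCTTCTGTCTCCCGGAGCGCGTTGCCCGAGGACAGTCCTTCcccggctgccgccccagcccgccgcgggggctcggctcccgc
MRPL28: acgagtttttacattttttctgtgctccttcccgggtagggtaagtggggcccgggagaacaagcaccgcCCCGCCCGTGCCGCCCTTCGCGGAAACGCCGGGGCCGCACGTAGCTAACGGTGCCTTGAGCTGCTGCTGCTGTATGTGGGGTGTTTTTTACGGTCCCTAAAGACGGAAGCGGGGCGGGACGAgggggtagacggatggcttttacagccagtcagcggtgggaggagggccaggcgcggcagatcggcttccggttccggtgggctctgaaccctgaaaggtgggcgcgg

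The 3 promoters differed in composition. RASGRF2 had 74.7% G and C with 41 CpG, MRPL28 63.7% with 28 CpG, and RAP2C 57.3% with 5 CpG. The clone 2 peak covered 109 of the 300 bases at RASGRF2, 122 at MRPL28 and 134 at RAP2C. Further sequences are those of the 3 highest-scoring clone 2-only peaks whose promoter holds the letters TGACTCA, the core of the site bound by AP-1 (the JUN and FOS family), on either strand; the capitals here mark the match. CDH18 encodes a type II cadherin (minus strand, chr5:19886223-19886522), LINC02159 is a long non-coding RNA gene (minus strand, chr5:160938577-160938876) and CCDC160 encodes a coiled-coil protein (plus strand, chrX:134236932-134237231). The match lay inside the clone 2 peak at CDH18 and LINC02159 and outside it at CCDC160.
CDH18: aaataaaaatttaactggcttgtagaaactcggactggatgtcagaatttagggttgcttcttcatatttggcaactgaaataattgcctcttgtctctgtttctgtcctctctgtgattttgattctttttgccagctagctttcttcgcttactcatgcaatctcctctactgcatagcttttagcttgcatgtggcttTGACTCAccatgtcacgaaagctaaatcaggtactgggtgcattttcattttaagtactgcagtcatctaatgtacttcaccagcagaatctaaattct
LINC02159: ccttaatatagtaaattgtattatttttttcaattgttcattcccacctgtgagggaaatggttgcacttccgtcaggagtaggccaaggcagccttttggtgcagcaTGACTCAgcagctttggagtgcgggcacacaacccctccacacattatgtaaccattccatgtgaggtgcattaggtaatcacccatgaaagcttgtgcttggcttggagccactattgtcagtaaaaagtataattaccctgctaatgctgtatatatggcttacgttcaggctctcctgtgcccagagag
CCDC160: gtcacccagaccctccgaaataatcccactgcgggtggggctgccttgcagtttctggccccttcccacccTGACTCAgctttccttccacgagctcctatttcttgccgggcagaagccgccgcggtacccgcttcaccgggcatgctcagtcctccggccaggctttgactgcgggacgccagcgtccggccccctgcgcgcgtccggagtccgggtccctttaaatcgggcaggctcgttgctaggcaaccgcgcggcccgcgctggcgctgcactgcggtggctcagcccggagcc

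Clone 2-only peaks were in the weaker and narrower range of their list, with medians nearest to those of clone 2 peaks found in clone 1 only. The deposited score, read here as the peak caller's −log10 p, had a median of 9.15 in clone 2-only peaks (range 5.01 to 22.1) and 11.3 in the other clone 2 peaks (5.01 to 88.4). The median width was 130.5 bp in clone 2-only peaks and 210 bp in the other clone 2 peaks. Clone 2 peaks found in clone 1 only had medians of 9.55 and 151 bp, those found in control only 9.86 and 155 bp, and those found in both other lists 12.09 and 242 bp. A width of 109 bp or less was found in 25.2% of clone 2-only peaks (23.7 to 26.8) and in 7.18% of the others (6.89 to 7.47). It was found in 16.7% (13.8 to 19.8) of those found in clone 1 only and 14.1% (13.4 to 14.9) of those found in control only. The share of members in a score decile was 19.7% in the weakest decile, 12.4% in the fifth, 0.879% in the ninth and 0.117% (4 of 3413) in the strongest.

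**Figure D1:**
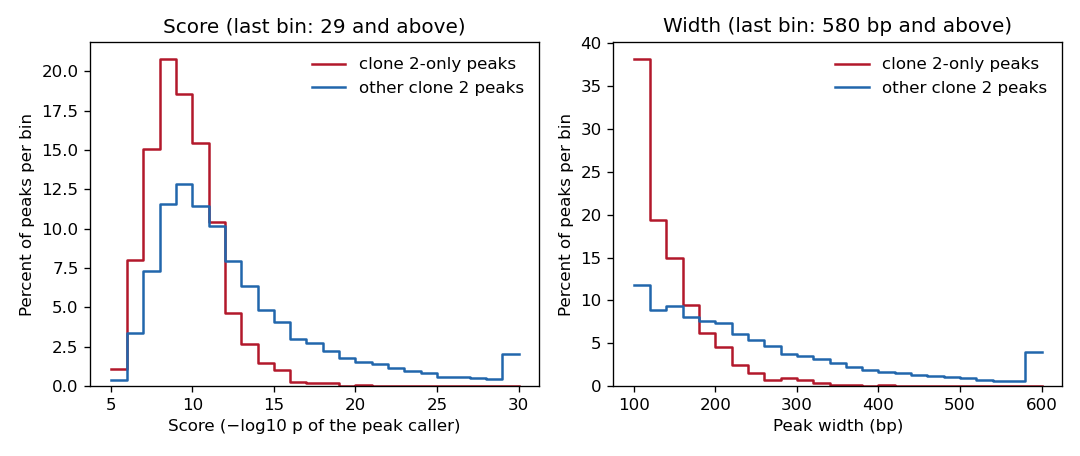
Distribution of score (left, in steps of 1) and width (right, in bp, in steps of 20 bp) of the 3144 clone 2-only peaks and the 30979 other clone 2 peaks, each as percent of its own class. Clone 2-only peaks have medians of 9.15 and 130.5 bp, against 11.3 and 210 bp in the other clone 2 peaks.

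Part of the scores, those of 2 series with 2604 and 647 of the 34123 clone 2 peaks, can be read as numbers of fragments. Many scores recurred exactly and matched −log10 of the Poisson probability of more than a whole number of fragments at 1 fixed background. A search from the most frequent scores gave 2 such series of at least 500 peaks, and which library each belongs to is not known. In the series with a background of 0.985 fragments, 885 of 2604 peaks were clone 2-only (34.0%, 32.2 to 35.8), and in the series with a background of 0.723, 203 of 647 (31.4%, 27.8 to 35.1). Over all clone 2 peaks the share was 9.21%. The most frequent score among clone 2-only peaks, 8.06 with 211 peaks, stands for a pileup of 10 in the first series, and the next, 9.15 with 179 peaks, for a pileup of 11. A score with more than 6 digits is a mean over merged peaks, which shows that more than 1 call went into the peak. Such scores were recognised in 342 clone 2-only peaks (10.9%, 9.81 to 12.02) and in 35.6% of the others (35.1 to 36.1). They were recognised in 22.7% (19.4 to 26.2) of clone 2 peaks found in clone 1 only and 22.2% (21.3 to 23.1) of those found in control only. Not every mean can be recognised, so these shares are lower limits. Recognised means were left out of the 2 series by definition. The part of this in the high clone 2-only shares of the series was not tested. The highest-scoring recognised mean, 17.5 at chr1:104765154-104765480, was 1006 kb from the nearest protein-coding gene. Others lay inside GPC3, a cell-surface heparan sulfate proteoglycan (16.2), and inside FBXL7, a subunit of a ubiquitin ligase (15.2); these were picked after their values were seen.

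Few of the sites abutted a peak of another list. The distance to the nearest clone 1 or control peak had a median of 12.5 kb (quartiles 4.68 and 33.9 kb) and was under 500 bp in 196 clone 2-only peaks (6.23%, 5.41 to 7.14). It was at least 10 kb in 1787 (56.8%) and at least 100 kb in 238 (7.57%). At the edge of the rule, the 5 closest members lay 3, 8, 10, 11 and 11 bp from such a peak, with scores of 11.9, 11.7, 7.80, 8.26 and 7.31. The 5 clone 2 peaks that just failed the rule shared 3, 8, 9, 10 and 11 bp, with scores of 8.06, 12.3, 6.97, 6.74 and 11.6, so scores on both sides of the edge overlap.

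Clone 2-only peaks stood apart from the rest of their list in position relative to genes. The rule did not use this position, but it dropped every clone 2 peak that overlaps a peak of another list. Clone 1 or control had a gene-end peak at 12629 of 19974 protein-coding genes. The part of this in the shares below was not tested. A gene-end peak here is one that reaches within 1000 bp of the start or the end of a protein-coding gene. Such peaks numbered 103 of 3144 clone 2-only peaks (3.28%, 2.68 to 3.96), against 9242 of 30979 other clone 2 peaks (29.8%, 29.3 to 30.3). Clone 2-only peaks were thus 1.1% of the 9345 gene-end peaks of clone 2, while they were 9.21% of all its peaks. Other clone 2 peaks weighted to the score deciles of the members gave 30.6%. Clone 2 peaks found in clone 1 only reached 8.09% (6.06 to 10.5), those found in control only 10.6% (9.95 to 11.4) and those found in both other lists 36.8% (36.2 to 37.4). The low share held in every score decile with more than 30 members: among members it ran from 0.820% to 4.96% in deciles 1 to 8, and among other clone 2 peaks from 25.7% to 35.1%.

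At annotated starts the same was seen. A promoter was overlapped by 78 of 2965 clone 2-only peaks (2.63%, 2.08 to 3.27) and by 7472 of 29201 other clone 2 peaks (25.6%, 25.1 to 26.1); chromosome 8, with 179 members, is left out of counts on promoters and starts, because its promoters were not used here. Clone 2-only peaks were 1.03% of the 7550 promoter peaks of clone 2. The centre of a clone 2-only peak was a median of 116 kb from the nearest protein-coding start, against 88.99 kb for those found in clone 1 only, 73.97 kb for those found in control only and 37.2 kb for all other clone 2 peaks. At 500 kb or more from any start lay 507 clone 2-only peaks (17.1%, 15.8 to 18.5) and 8.01% of the others (7.70 to 8.33). Between 1 and 10 kb the shares, 6.64% (5.77 to 7.60) and 6.62% (6.34 to 6.91), had overlapping intervals.

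**Figure D2:**
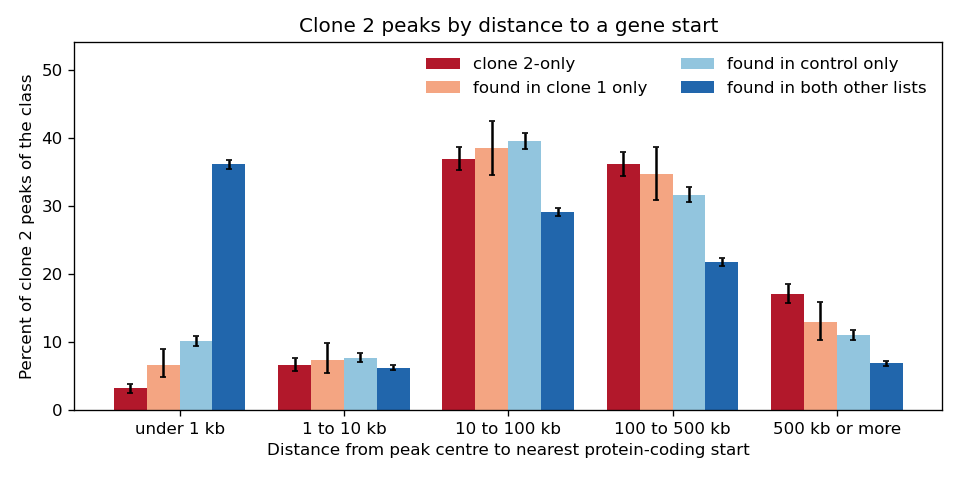
Clone 2 peaks by distance of the peak centre to the nearest protein-coding start, as percent of each class with 95% binomial intervals, chromosome 8 left out. Under 1 kb lie 3.17% of clone 2-only peaks, 6.69% of those found in clone 1 only, 10.1% of those found in control only and 36.1% of those found in both other lists; at 500 kb or more the shares are 17.1%, 12.9%, 11.1% and 6.87%.

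Within genes and far from them, clone 2-only peaks were closer to the peaks shared with a single other list. Inside a protein-coding gene lay 1227 clone 2-only peaks (39.0%, 37.3 to 40.8), against 40.6% (36.7 to 44.6) of clone 2 peaks found in clone 1 only, 44.9% of those found in control only and 54.4% (53.8 to 54.9) of all other clone 2 peaks. In no annotated gene of any kind lay 1412 clone 2-only peaks (44.9%, 43.2 to 46.7), against 44.98% (41.0 to 49.0) of those found in clone 1 only, 39.8% of those found in control only and 31.6% (31.1 to 32.1) of all others. For both measures the intervals of clone 2-only peaks and of peaks found in clone 1 only overlap. Inside a long non-coding RNA gene but no protein-coding gene lay 14.7% (13.5 to 15.98) of clone 2-only peaks, 13.1% found in clone 1 only and 12.7% (12.4 to 13.1) of all others. More than 500 kb from every protein-coding gene lay 315 clone 2-only peaks (10.0%, 8.99 to 11.1), against 7.12% (5.22 to 9.44) of those found in clone 1 only, 6.33% of those found in control only and 4.58% (4.35 to 4.82) of all others. A microRNA hairpin within 1000 bp was found for 1 clone 2-only peak, at MIR583, and for 123 other clone 2 peaks (0.397%).

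Clone 2-only peaks were found in many parts of the genome and were more frequent where genes are few. Of windows of 1 Mb, 1667 of the 2819 with any clone 2 peak held at least 1 member, 55 held 5 or more, and the most was 9. In windows without the midpoint of a protein-coding gene, 461 of 2581 clone 2 peaks were clone 2-only (17.9%, 16.4 to 19.4). The share was 11.3% (10.7 to 11.9) in windows with 1 to 4 genes, 7.82% (7.33 to 8.34) with 5 to 9, 5.40% (4.80 to 6.05) with 10 to 19 and 4.09% (3.38 to 4.91) with 20 or more. Relative to the number expected from score deciles, the same classes ran 2.19, 1.31, 0.855, 0.526 and 0.363.

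By chromosome, the share of clone 2 peaks that were clone 2-only was highest on X (13.2%, 11.6 to 14.9), 18 (12.4%, 10.4 to 14.7) and 4 (12.4%, 11.1 to 13.7), whose intervals overlap. It was lowest on 19 (4%, 2.43 to 6.18), 17 (6.11%, 4.19 to 8.57) and 15 (6.22%, 4.69 to 8.06), which also overlap one another. Across the 23 chromosomes the share had a Spearman correlation of -0.56 and a Pearson correlation of -0.68 with protein-coding genes per Mb, a description of points that share the same libraries. Chromosome 19, the most gene-dense at 24.9 genes per Mb, held 0.326 members per Mb, and chromosome 4, at 4.05 genes per Mb, held 1.71. All clone 2 peaks also differed there, with 8.16 per Mb on 19 and 13.8 on 4. The order was not strict. Chromosome 22, at 11.2 genes per Mb, held the fewest members per Mb, 0.298. Chromosome 13, at 3.44 genes per Mb, held 0.925, with a share of 8.89%.

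**Figure D3:**
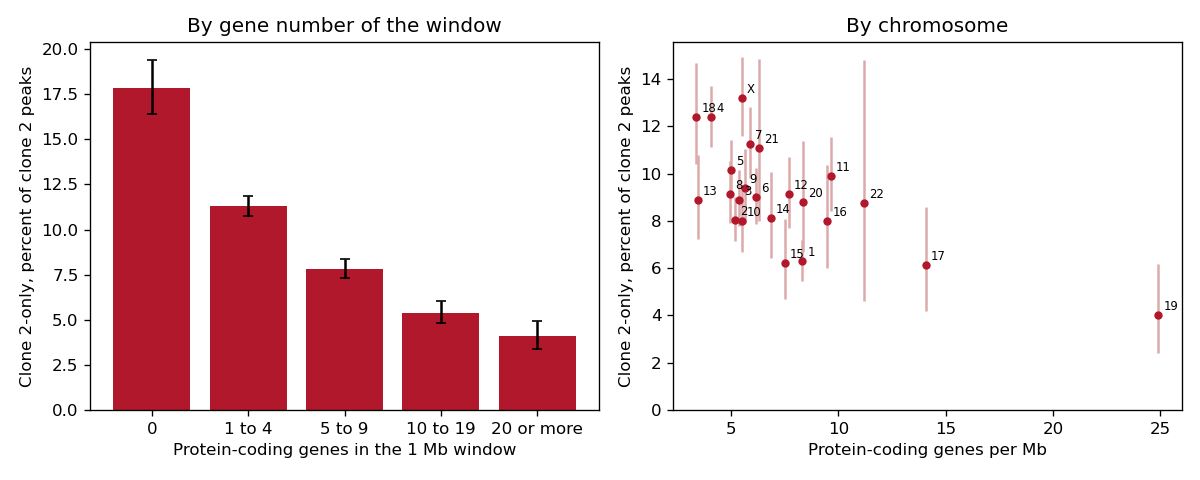
Left, clone 2-only peaks as percent of clone 2 peaks in windows of 1 Mb grouped by their number of protein-coding genes; right, the same share for each chromosome against its protein-coding genes per Mb. Bars on both are 95% binomial intervals; the share is 17.9% in windows with no gene and 4.09% in those with 20 or more, and 13.2% on chromosome X against 4% on chromosome 19.

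The 10 strongest clone 2-only peaks lay 9.57 to 496 kb from the nearest peak of another list, against a median of 12.5 kb over all members. The highest score, 22.1 at chr4:166318939-166319140, was 214 kb from TLL1, an astacin-family metalloprotease gene, and 116 kb from the nearest peak of another list. Scores of 20.3 were found at chr13:69474406-69474560, 226 kb from KLHL1, and at chr15:67840049-67840308, 5.47 kb from SKOR1, a transcriptional corepressor; both are single-library values of pileup 20. The next were 19.5, 334 kb from MYT1L, a neuronal transcription factor gene, 18.9, 338 kb from SETBP1, and 18.9 inside FAT3. Further sites of the first 10 were nearest to EPHA6, an ephrin receptor gene (18.8), FAM47C (18.4) and LOC105375816 (18.3). None of the 10 carried a recognisable mean.

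The 5 widest clone 2-only peaks were all recognised means. Such means were wider as a class, with a median of 183.5 bp against 130.5 bp over all clone 2-only peaks. The widest, 457 bp at chr2:123720710-123721166 with a score of 14.0, was 304 kb from CNTNAP5, a neurexin-family cell adhesion gene. The next 4 were 437 bp wide near CDV3 (score 10.2), 417 bp inside AIM2, a sensor of cytosolic DNA (10.6), 400 bp inside MMP26, a matrix metalloprotease (11.1), and 400 bp 1280 kb from FAM181B (13.0).

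Most members had no other member within 10 kb. The distance to the nearest other clone 2-only peak had a median of 228 kb, and it was under 10 kb for 198 members (6.30%, 5.47 to 7.20). The same distance was not computed for other clone 2 peaks or for scattered sites, so whether members cluster was not tested. There were 45 pairs with centres under 1 kb apart, with a median of 118 bp between the peaks. The window with the most members, 9 of 20 clone 2 peaks, was chr5:103000001-104000000; it held 6 clone 1 and 11 control peaks, and no member of it lay inside a protein-coding gene. Next came 7 of 19 clone 2 peaks at chr2:138000001-139000000, of which 1 was inside NXPH2, a neurexophilin, and 7 of 24 at chr6:52000001-53000000, of which PKHD1 and TRAM2 held 2 each and GSTA5 held 1. At chr11:92000001-93000000 the 7 members of 11 clone 2 peaks all lay inside FAT3, where clone 1 had 1 peak in the window and control 8. The fifth, 6 of 14 clone 2 peaks at chr3:133000001-134000000, is 1 of 11 windows with 6 members and came first by chromosome order; SRPRB held 2 of them and TMEM108 held 1.

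Inside genes, clone 2-only peaks were found in 977 of 19974 protein-coding genes (4.89%), 773 of them with a single member. The share was higher in longer genes: clone 2-only peaks made up 13.5% (12.2 to 15.0) of the clone 2 peaks in genes of 500 kb or longer, 9.46% (8.56 to 10.4) in genes of 200 to 500 kb, 5.88% (5.33 to 6.47) in genes of 50 to 200 kb and 2.66% (2.26 to 3.11) in genes under 50 kb. Gene-end peaks are more frequent in short genes; without them the 4 shares were 14.7%, 11.4%, 9.52% and 7.93%. Over all gene bodies the share was 6.79%.

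FAT3, a giant protocadherin of the Fat family that shapes neurons of the retina in mice, had the most, 7 of 11 clone 2 peaks in 672 kb. Their scores in order along the gene were 6.00, 10.3, 13.0, 18.9, 11.9, 7.25 and 11.9, and the one at 13.0 was a recognised mean; each was 4.96 to 114 kb from any clone 1 or control peak. The gene held 1 clone 1 and 6 control peaks. CSMD1, a transmembrane protein with complement-regulatory domains, had 6 of 8 clone 2 peaks, with scores of 6.59, 11.4, 11.9, 14.1, 7.01 and 13.9. RBFOX1, a splicing regulator of neurons and muscle, had 6 of 9, with scores of 11.3, 10.5, 8.48, 11.8, 6.00 and 13.8. Its last peak, at chr16:7398027-7398266, was 775 kb from the nearest peak of another list, the farthest of all 3144 members. DGKB, a diacylglycerol kinase, had 6 of 19 clone 2 peaks.

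In these genes and those next in number the members stood among other clone 2 peaks in very different proportions. PDE4D, a cAMP phosphodiesterase, had 5 of 13, ROBO2, an axon guidance receptor, 5 of 15, PRKG1, a cGMP-dependent kinase, 5 of 24, and TENM3, a teneurin adhesion receptor, 5 of 25. PKHD1, the fibrocystin gene, had 4 of 5 clone 2 peaks and was taken from 11 genes with 4 members for its highest share. The intervals of these shares are wide, for example 30.8 to 89.1% at FAT3 and 6.83 to 40.7% at TENM3.

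**Figure D4:**
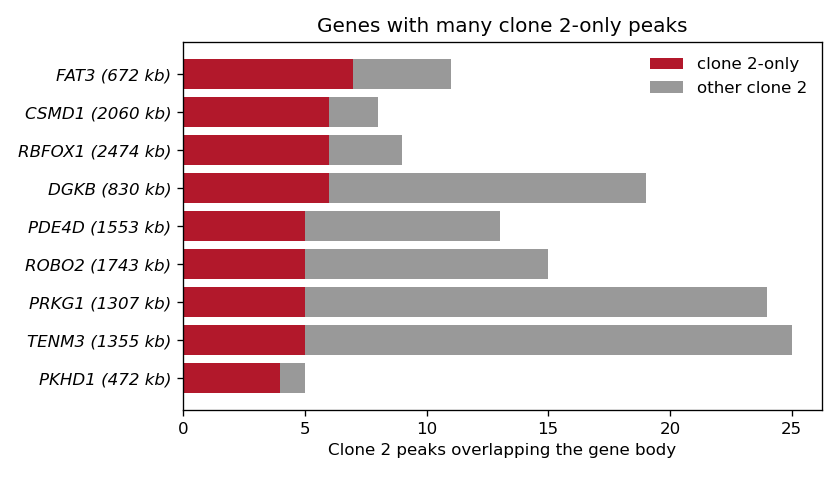
Number of clone 2 peaks overlapping 9 of the genes with the most clone 2-only peaks, split into clone 2-only and other clone 2 peaks, with gene length in kb. FAT3 holds 7 of 11 and TENM3 5 of 25.

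The gene lists were looked at in the same way. In the bodies of 20 neuronal genes, 34 of 215 clone 2 peaks were clone 2-only (15.8%, 11.2 to 21.4), at 14 of the genes, NLGN1 and DCC among them. In 18 genes of common fragile sites, long genes prone to breaks under replication stress, it was 40 of 248 (16.1%, 11.8 to 21.3), at 16 of the genes, FHIT and WWOX among them. CNTNAP2, CSMD1 and DLG2 are in both lists. Both intervals hold the 13.5% of all genes of 500 kb or longer. In 21 potassium channel genes it was 5 of 86 (5.81%, 1.91 to 13.0), an interval that holds the 6.79% of all gene bodies.

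Genes of innate immunity, of PD-L1 and its relatives and of fork repair held between 8 and 43 clone 2 peaks a list, and the clone 2-only peaks among them are read against the 6.79% of all gene bodies. No clone 2-only peak overlapped the bodies of 21 nucleic acid sensing genes (0 of 16 clone 2 peaks), 25 interferon-stimulated genes (0 of 8) or 16 AP-1 factor genes (0 of 8), and these counts allow shares of up to 20.6%, 36.9% and 36.9%. The checkpoint ligand genes had 1 of 9, in PDCD1LG2, which encodes PD-L2, and the NF-kB genes 1 of 13, in NFKB1, a subunit of the factor. Fork and repair genes had 2 of 37, in PRIMPOL, a primase that restarts stalled forks, and in BRCA2, which protects stalled forks. Remodeller genes had 2 of 43, in ATRX and SMARCA1, both SNF2-family ATPases. The intervals of all 7 of these lists hold 6.79%. No clone 2-only peak lay within 50 kb of CD274, the gene for PD-L1, which had 4 clone 2 peaks there, or within 50 kb of SMARCAL1, which had 7. Against the 9.21% of all clone 2 peaks, these counts are too small for an absence to be read. Other lists gave 2 of 24 clone 2 peaks in cell cycle genes, both in CDK6, 0 of 16 in housekeeping genes, 2 of 19 in basal genes, both in EGFR, 1 of 10 in luminal genes (PGR) and 2 of 27 in mesenchymal genes (FN1 and SPARC), again with intervals that hold 6.79%.

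Markers of cell types other than that of MDA-MB-436 were counted in the same way. Leukocyte genes had 1 of 7 clone 2 peaks (PTPRC), melanocyte genes 2 of 11 (DCT and MITF), endothelial genes 2 of 8 (ERG and TEK), fibroblast genes 0 of 8, and hepatocyte genes had no clone 2 peak in a body. The intervals, 0.361 to 57.9% for leukocyte, 2.28 to 51.8% for melanocyte and 3.19 to 65.1% for endothelial genes, hold the 6.79% of all gene bodies. Over all protein-coding genes, 8624 had a gene-end peak in clone 2, 10068 in clone 1 and 12166 in control. Of 14 basal genes 2 had one in clone 2, 6 in clone 1 and 7 in control, and of 14 luminal genes 2 in clone 2 (EPCAM and FOXA1), 5 in clone 1 and 6 in control. Of 16 mesenchymal genes, VIM and CDH2 among them, 8 had one in clone 2, 9 in clone 1 and 12 in control, and of 25 housekeeping genes 16, 20 and 22. The counts in the same order were 12, 9 and 13 of 20 neuronal, 3, 1 and 3 of 10 leukocyte, 3, 3 and 3 of 6 melanocyte, 1, 1 and 1 of 6 endothelial, 0, 1 and 4 of 8 fibroblast and 0, 0 and 1 of 6 hepatocyte genes. The part of other cell types in the clone 2-only peaks was not tested.

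At gene ends, 127 of 19974 protein-coding genes (0.636%) had a clone 2-only peak, and 77 of these had no gene-end peak in either other list. Over all genes, 7345 (36.8%) had none in either list. A single peak with a score of 6.73 at chr5:141513793-141513904, at the shared 3′ end of the gamma protocadherins, counts for 22 of the 127 genes and 17 of the 77. Another 8 peaks served 2 genes each, among them the shared start of DOLK, a dolichol kinase, and NUP188, a nucleoporin (score 9.99, 35.8 kb from any other list's peak), and a pair of peaks where the neuropeptide Y receptor genes NPY1R and NPY5R overlap (8.06 and 8.74). The pairs at DOLK and NPY1R were picked after their values were seen.

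The highest scores at a gene end were 15.5 at PDC, a photoreceptor phosphoprotein, and 15.1 at the 3′ end of DCC, a netrin receptor. RAP2C followed with 13.1, RASGRF2 with 12.5 and a peak before the start of MRPL28 with 11.8, whose covered bases are printed above; this last peak also counts for PGAP6, whose nearest end it flanks and whose own start is 11321 bp away. At RAP2C the nearest clone 1 peak was 655 bp away, within the 1000 bp window of the gene's end, and the nearest control peak 988 bp away, outside that window. At RASGRF2 the nearest control peak was 7.17 kb away and the nearest clone 1 peak 235 kb away. SLC16A14, a monocarboxylate transporter family gene, had 11.5, HTR1A, a serotonin receptor gene, 11.4, OR2T10, an olfactory receptor gene, 11.2, and DOCK11, a guanine nucleotide exchange factor, 10.95. Of these 10 genes, all but DCC and RAP2C lacked a gene-end peak in both other lists. From the gene lists, only DCC, SNAP25, a synaptic fusion protein (9.84), and PTPRC, the leukocyte marker CD45 (7.80), had a clone 2-only gene-end peak, 3 of 334 matched genes, against 0.636% of all genes.

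The 78 clone 2-only peaks at promoters, 59 of protein-coding and 19 of long non-coding RNA genes, had a median score of 8.62, against 9.15 in the members away from promoters. For each clone 2 peak the promoter it overlaps most was taken, so a promoter under several peaks counts once for each. Promoters under clone 2-only peaks had a median of 61.2% G and C (quartiles 47.7 and 73.6). The median was 66.7% (60.3 and 72.7) under other clone 2 peaks and 58.7% (47 and 68) over all 34961 promoters. Promoters under 45% G and C made up 19.2% (11.2 to 29.7) under clone 2-only peaks, 2.42% (2.09 to 2.80) under the others and 20.6% of all promoters. The ratio of observed to expected CpG had a median of 0.719 under clone 2-only peaks and 0.858 under other clone 2 peaks. The centre of the peak lay before the start in 75.6% (64.6 to 84.7) of clone 2-only and 82.3% (81.4 to 83.2) of other clone 2 promoter peaks.

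Short motifs were counted on both strands of these promoters. A TATA box (TATAAA) was found in 13 of 78 promoters under clone 2-only peaks (16.7%, 9.18 to 26.8), in 4.28% (3.83 to 4.77) of those under other clone 2 peaks and in 11.5% of all promoters. The AP-1 letters TGACTCA were found in 10 of 78 (12.8%, 6.32 to 22.3), 4.31% (3.86 to 4.79) and 4.92%, and in 8 of the 10 a match lay inside the peak. Promoters under other clone 2 peaks were then weighted to the GC classes of the clone 2-only set. They held a TATA box in 10.5% and the AP-1 letters in 10.6%, both within the intervals of the clone 2-only set. All promoters, weighted in the same way, held a TATA box in 10.8%, within the interval, and the AP-1 letters in 4.66%, below it. A GC box (GGGCGG) was found in 55.1% (43.4 to 66.4), 75.3% and 45.03%, and in 59.4% of the other promoters at equal GC. The CCAAT box (CCAAT, 30.8%, 39.1% and 34.6%), the ETS site (CCGGAAG, 17.9%, 19.6% and 10.3%), the CRE (TGACGTCA, 2.56%, 3.56% and 1.85%) and the E-box (CACGTG, 11.5%, 9.74% and 7.27%) had intervals in the clone 2-only set that hold the value of the other clone 2 promoters. No motif as searched contains another, though matches can share bases, and a match describes letters, not binding.

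**Figure D5:**
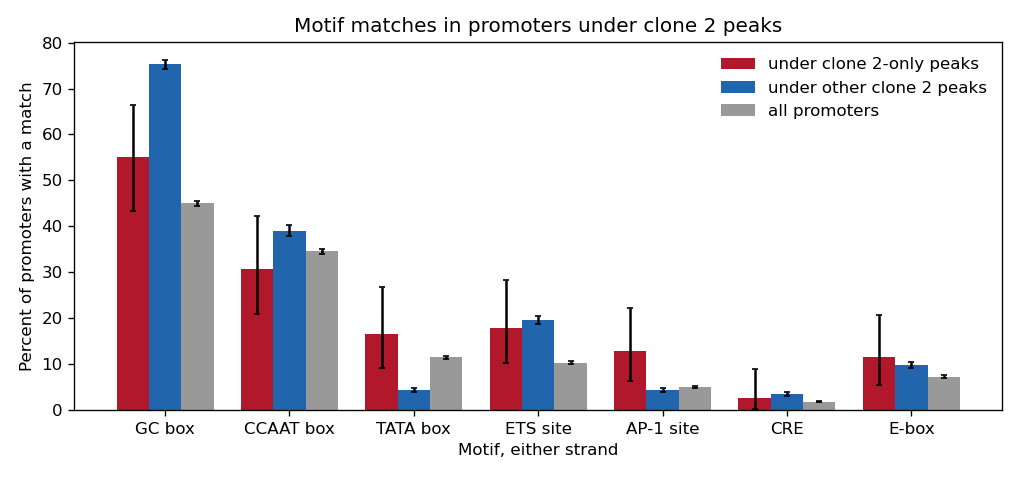
Percent of 300-base promoters with each motif on either strand, under clone 2-only peaks (78), under other clone 2 peaks (7472) and over all promoters (34961), with 95% binomial intervals. The TATA box is found in 16.7%, 4.28% and 11.5%, and the AP-1 site in 12.8%, 4.31% and 4.92%.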

How the data were processed

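ATAC-seq peaks of 3 MDA-MB-436 groups were used, 1 deposited list each, in which the authors had merged the peaks of 2 or 3 libraries, per the labels. Each line holds chromosome, start, end and score. The submitters' processing notes name hg38 and the tools HISAT2, MACS2 and ChIPseeker, with no versions. The lists have no header; the unit of the deposited score, −log10 p, was read from its values, which follow Poisson tails at whole pileups. The depth in reads is unknown. The lists held 34572 (clone 2), 39537 (clone 1) and 64806 (control) peaks, with median widths of 200, 453 and 399 bp; the part of these differences in which peaks overlap was not tested. Scores are not compared between lists.

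Overlaps were computed in Python 3.11.15 (pandas 2.3.3, numpy 2.4.6), tested on simulated peaks and checked against bedtools 2.31.1; intervals come from scipy 1.17.1. Coordinates are hg38, counted from 1. Genes are the 19974 protein-coding genes of RefSeq GRCh38.p14 on chromosomes 1 to 22 and X. The members, the 20 gene lists and the tests were chosen with earlier results of these data known. Genes are named by a rule: CD274 and SMARCAL1, the 10 highest scores, the 10 highest scores at gene ends, the 10 genes with the most members (ties by share), the genes of the 5 fullest windows, the 5 widest peaks and list genes; some of these are not reported here. Promoter sequences and motifs were added after the data were seen.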

Additional observations from a re-analysis of the deposited data

How the results depend on the processing

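No paired analysis was possible because each group is 1 merged list, and for the same reason no library could be left out. Each share was set against the 95% interval of its reported value and each count against a factor of 1.5; of 63 alternatives over 27 results, 27 stayed within that range and 36 moved. The number of clone 2-only peaks was 3228 when at least 50% of the clone 2 peak had to be covered and 2948 (8.64% of clone 2 peaks) when none lay within 500 bp. It was 1149 (5.44%) at scores of at least 10, 663 (3.88%) above the median score, 342 (3.01%) among recognisable means, 3762 (11.02%) against control only and 10731 (31.4%) against clone 1 only.

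In every alternative run the gene-end share was lower in clone 2-only than in other clone 2 peaks. It was 2.35% and 26.7% with windows of 500 bp, 6.01% and 33.6% with 3000 bp, 1.21% and 28.6% above the median score, and 2.05% and 31.7% among means, and the others weighted by score deciles gave 30.6%. The promoter share, with settings chosen after seeing the data, was 1.42% and 27.2% above the median score, 29.7% in the others among means and 23.7% in the others weighted. Above the median score, 35.3% of clone 2-only peaks lay inside genes and their median gap to a protein-coding gene was 38.4 kb, against 21.95 kb over all. There, the share of clone 2-only peaks was 1.23% on chromosome 19, 1.52% on 17, 6.36% on 4 and 6.24% on X, which keeps the first pair below the second but reverses 4 and X. The genes with a clone 2-only gene-end peak numbered 77 with windows of 500 bp and 227 with 3000 bp. The counts of the 5 fullest windows did not change when members within 500 bp of another list's peak were left out. Clone 2-only peaks of the 2 recognised score series had median pileups of 10 and 11 fragments, which limits what a single call can show. The cause of the moves was not tested.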
